A study of Mus musculus with 20 samples.

Results

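The genes described here encode the proteins of the mitochondrial ribosome. Members were chosen by symbol: every gene whose mouse symbol is Mrpl or Mrps followed by a number and at most 1 letter, with 5 named pseudogenes left out. The rule used no measured value and found 78 of the 55487 genes in the count table, 49 with an Mrpl and 29 with an Mrps symbol, spread over 17 chromosomes. Of these, 51 belong to the large subunit (including Mrps18a and Mrps30, which sit there despite their names) and 26 to the small subunit. Mrps36 carries a ribosomal name but is known as a subunit of the 2-oxoglutarate dehydrogenase complex.

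Mitochondria keep their own ribosome to translate the few respiratory chain subunits encoded in mitochondrial DNA. Its RNAs are mitochondrial, but all of its proteins are encoded in the nucleus, translated in the cytosol and imported. Some descend from bacterial ribosomal proteins and others are found in mitochondrial ribosomes and not in bacteria. In neurons, mRNAs for mitochondrial proteins are known to be present in axons as well as in the cell body.

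The sources used here describe the RNA as that of subcerebral projection neurons, the cortical neurons whose axons reach brainstem and spinal cord, of mice at postnatal day 1. Growth cone libraries also held RNAs known as markers of other cells and tissue, which are given below. The 20 libraries fall into 4 groups of 5: wild-type (WT) cell bodies (somata) of the cortex, WT growth cones (axon tips) of brainstem and spinal cord, and the same 2 compartments of the genotype labelled Bcl11b KO. Bcl11b is a transcription factor of these neurons, and the allele, its driver and the purification of either compartment are not given in the sources used here. Labels do not say whether libraries of a group came from separate animals, so p-values measure the spread between these libraries, which may be technical.

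Library totals were 18962308 to 36059112 counts in WT somata, 35243688 to 51205154 in labelled KO somata, and for growth cones 26382991 to 29323028 (WT) and 21657575 to 27723067 (labelled KO). Bcl11b itself goes against its label in somata. Its level was 587, 806, 784, 788 and 542 CPM (read counts scaled to library size, with TMM scaling over all 20 libraries) in WT somata and 1181, 1147, 1122, 1074 and 1222 CPM in somata labelled KO. Every soma library labelled KO lay above every WT soma library, with means of 701 ± 126 and 1149 ± 56.4 CPM (SD, n = 5) and a log2 difference of 0.71 ± 0.12 (SE) that passed the test (edgeR adjusted p = 0.0153). In growth cones it had 72.6, 115, 123, 99 and 96.1 CPM in WT and 66.8, 71.9, 141, 89.9 and 141 CPM in the labelled KO, which overlap (log2 difference 0.03 ± 0.25, edgeR adjusted p = 0.999). Which part of the gene was deleted is not given in the sources used here, so these counts check the genotype labels no further, and the genotype is called "labelled KO" throughout.

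Promoter windows are shown for members that the comparisons below turn on: Mrpl52, Mrpl30, Mrps15, Mrps18a and Mrpl12, which were higher in growth cones, and Mrps22, which was lower in WT growth cones. The sequences are RefSeq's (GRCm38.p6), 120 bases before to 30 after the annotated start, 5′ to 3′ on the gene's strand. Capitals mark matches, on either strand, to 3 motifs of factors known for genes of mitochondria: the core site of NRF1, given by its name alone, CCGGAAG (the ETS factor GABPA) and AAGATGGCG (YY1). The windows lie at chr14:54426789-54426938 (Mrpl52, plus strand), chr1:37890357-37890506 (Mrpl30, plus), chr4:126046808-126046957 (Mrps15, plus), chr17:46110884-46111033 (Mrps18a, plus), chr11:120484517-120484666 (Mrpl12, plus) and chr9:98601650-98601799 (Mrps22, minus).
Mrpl52: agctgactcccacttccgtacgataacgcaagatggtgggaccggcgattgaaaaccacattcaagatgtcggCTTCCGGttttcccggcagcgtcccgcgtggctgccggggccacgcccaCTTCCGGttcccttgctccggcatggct
Mrpl30: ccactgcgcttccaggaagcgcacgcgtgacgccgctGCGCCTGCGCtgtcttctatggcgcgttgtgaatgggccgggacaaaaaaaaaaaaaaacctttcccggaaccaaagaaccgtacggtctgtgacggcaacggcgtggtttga
Mrps15: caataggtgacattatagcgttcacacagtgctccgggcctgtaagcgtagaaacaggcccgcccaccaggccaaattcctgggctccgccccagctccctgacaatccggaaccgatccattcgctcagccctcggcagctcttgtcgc
Mrps18a: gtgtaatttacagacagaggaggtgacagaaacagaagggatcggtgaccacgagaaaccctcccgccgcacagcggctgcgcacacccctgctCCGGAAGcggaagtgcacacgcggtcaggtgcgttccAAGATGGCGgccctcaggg
Mrpl12: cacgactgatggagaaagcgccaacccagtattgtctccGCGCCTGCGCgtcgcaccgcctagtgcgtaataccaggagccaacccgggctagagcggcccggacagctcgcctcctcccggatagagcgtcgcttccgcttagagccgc
Mrps22: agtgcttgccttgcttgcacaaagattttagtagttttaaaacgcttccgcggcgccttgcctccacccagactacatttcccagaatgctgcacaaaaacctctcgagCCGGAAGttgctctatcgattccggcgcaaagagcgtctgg

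Over full windows of 300 bases (250 before to 50 after the start), RefSeq entries were matched for 69 members with 75 windows. The GABPA letters stood in 34.7% of member windows, against 8.9% of all 32851 windows and 16.5% of the windows of genes tested. The NRF1 letters stood in 17.3% against 4.6% and 9.6%, and the YY1 letters in 10.7% against 1.4% and 2.8%. At least 1 of the 3 motifs was found in 54.7% of member windows, against 13.6% of all windows and 26% of the windows of genes tested. Among windows of members called higher in WT growth cones, 43.2% (19 of 44) held the GABPA letters. Among the other member windows, 22.6% (7 of 31) did. The NRF1 letters stood in 20.5% of the former and 12.9% of the latter. The YY1 letters went the other way, at 9.1% and 12.9%. Whether these shares differ was not tested, and no share is given for all genes called higher. The windows of Mrps11 and Mrpl46, which are neighbours on opposite strands, share 141 bases.

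Levels of member mRNAs in growth cone and soma libraries were compared first in WT. Most members that differed were higher in growth cones: 42 of 77 tested members rose and 5 fell, and 30 did not pass (edgeR quasi-likelihood test, Benjamini-Hochberg adjusted p under 0.05 over 15128 genes). This is 54.5% higher and 6.49% lower, where 23.1% of all genes tested were called higher and 19.7% lower (42.8% called in all). The median log2 difference was 0.78 for members and 0.07 for all genes tested. Of the members that rose, 32 were over 2-fold higher and 7 over 4-fold higher. No share of all genes past these sizes was computed, so these counts do not set members apart from other genes. In 34 members every growth cone library lay above every soma library (20.3% of all genes) and in 2 every one lay below (17.3%). In bulk RNA, fewer cells of a type and less RNA per cell cannot be told apart. Growth cone and soma libraries share no experiment number and differ in their range of RNA input. A difference of compartment therefore cannot be told apart from one of experiment or input, in either genotype.

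Both subunits and both origins showed the same direction. In the large subunit 27 of 50 tested members rose and 4 fell, with a median of 0.76, and in the small subunit 14 of 26 rose and 1 fell, with a median of 0.78. Of 46 members with a bacterial counterpart 27 rose and 2 fell (median 0.87), and of 30 tested members without one 14 rose and 3 fell (median 0.69). Mrps36 was the remaining member that rose.

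**Figure D1:**
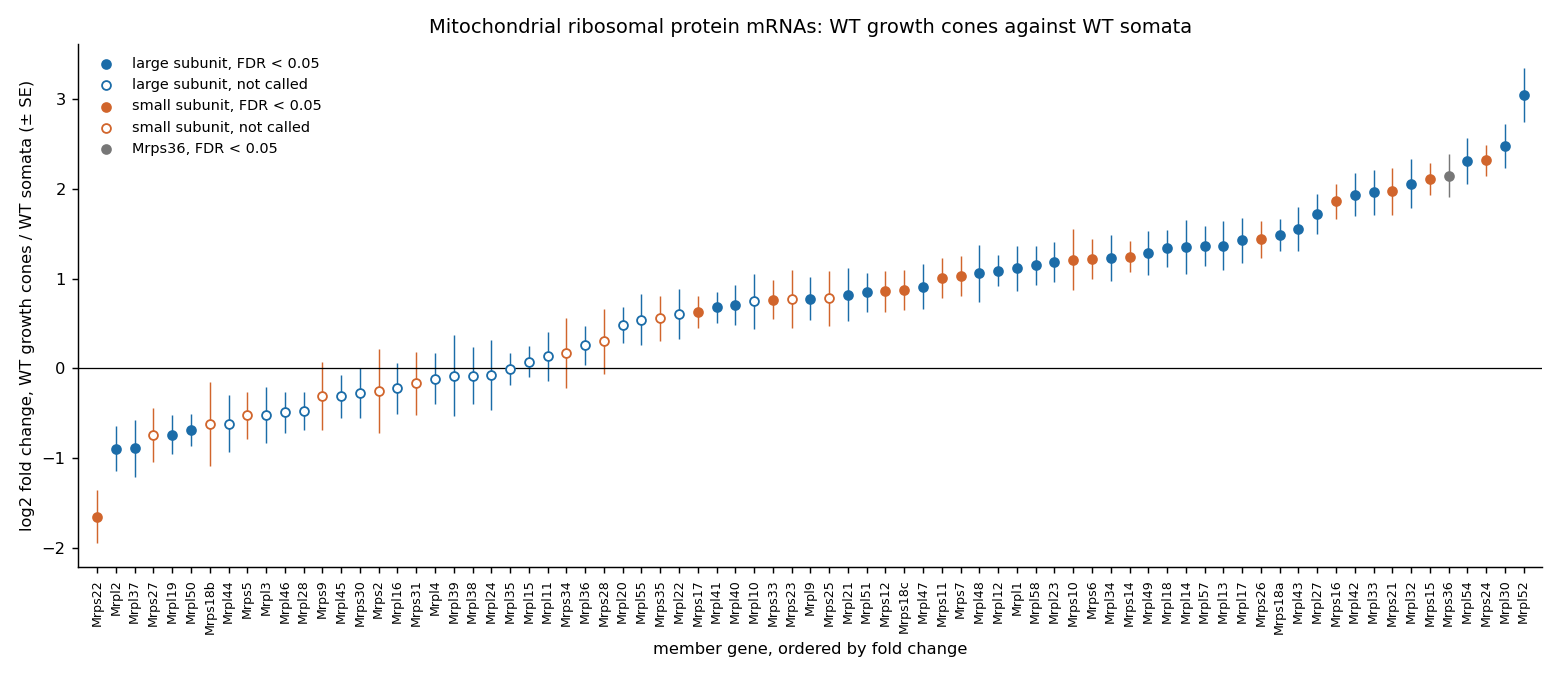
Log2 fold change (± SE) of the 77 tested members between WT growth cones and WT somata, ordered by size, with large subunit members in blue, small subunit members in orange and Mrps36 in grey. Filled points passed an edgeR adjusted p of 0.05: 42 lie above 0 and 5 below, from Mrpl52 at 3.04 to Mrps22 at -1.65.

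Mrpl52, a large subunit protein without a bacterial counterpart, had the highest fold change of all members. Its level was 33.2, 18.8, 24.5, 32.2 and 18.2 CPM in the 5 WT soma libraries and 199, 338, 138, 135 and 205 CPM in the WT growth cone libraries. Every growth cone library lay above every soma library, with a log2 difference of 3.04 ± 0.30 (SE), or 8.25-fold (edgeR adjusted p = 1.08e-05). The labelled KO had 22.5, 21.6, 26.7, 20.9 and 22.6 CPM in somata and 247, 196, 169, 74.1 and 207 CPM in growth cones, again without overlap, and a log2 difference of 3.06 ± 0.30.

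Mrps24, the counterpart of the bacterial protein S3 at the entry of the mRNA channel, had the lowest p of all members. Its WT levels were 78.5, 59.8, 52.6, 62.1 and 51.2 CPM in somata and 354, 297, 275, 229 and 309 CPM in growth cones. The groups did not overlap, and the log2 difference was 2.32 ± 0.17 (edgeR adjusted p = 1.49e-06). For the labelled KO it was 2.50 ± 0.23, from 47.4 to 65.8 CPM in somata to 176 to 387 CPM in growth cones. A part of its exons, 15.4% of the bases, overlaps the gene Urgcp on the same strand.

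Mrps15 and Mrps16, small subunit proteins with bacterial counterparts that bind ribosomal RNA, rose as well. Mrps15 had 68.2, 52.4, 46.6, 48.6 and 54.6 CPM in WT somata and 295, 233, 203, 193 and 203 CPM in WT growth cones, a log2 difference of 2.11 ± 0.17. Mrps16 went from 22.8 to 36.9 CPM in WT somata to 88.3 to 119 CPM in WT growth cones, a log2 difference of 1.86 ± 0.20. Neither overlapped between the compartments in WT, and in the labelled KO the log2 differences were 2.35 and 2.01.

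In the large subunit, Mrpl30 and Mrpl27, both with bacterial counterparts, and Mrpl54, without one, were among the higher members. Mrpl30 had 102, 50.9, 64.2, 80.0 and 75.9 CPM in WT somata and 418, 611, 356, 289 and 330 CPM in WT growth cones. The groups stood apart by a log2 difference of 2.47 ± 0.24 in WT and 2.34 ± 0.19 in the labelled KO. Mrpl54 rose by 2.31 ± 0.26 in WT and 2.64 ± 0.27 in the labelled KO on the log2 scale, and Mrpl27 by 1.71 ± 0.22 and 1.63 ± 0.19, though 22.32% of the 50-base stretches of Mrpl27 also occur in transcripts of other genes. Mrpl18, the counterpart of bacterial L18, rose by 1.34 ± 0.21 and 1.38 ± 0.15. Mrps36, the dehydrogenase subunit, rose by 2.14 ± 0.24 in WT and 2.23 ± 0.31 in the labelled KO, and it shares 17.29% of its 50-base stretches with transcripts of other genes.

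The proteins of the stalk, which brings translation factors to the ribosome, did not share a call. Mrpl12, the stalk protein itself, had 172, 118, 104, 108 and 115 CPM in WT somata and 255, 207, 261, 249 and 298 CPM in WT growth cones. The compartments did not overlap, and the log2 difference was 1.09 ± 0.17 in WT (edgeR adjusted p = 0.000297) and 1.21 ± 0.13 in the labelled KO (3.47e-05). Mrpl10, which holds Mrpl12 on the ribosome, differed by 0.74 ± 0.31 in WT and did not pass (edgeR adjusted p = 0.0716), and its growth cone libraries ran from 35 to 105 CPM across a soma range of 38.7 to 50.8 CPM. Mrpl11, at the stalk base, differed by 0.13 ± 0.27 (0.725), with all groups overlapping. Whether the 3 genes differ from each other in this was not tested.

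Mrps18a, in the large subunit, and Mrps18b and Mrps18c, in the small subunit, are 3 paralogs related to bacterial S18. Of these, Mrps18c is counted above as the bacterial counterpart, and Mrps18a and Mrps18b among the members without one. Mrps18a had 114, 71.1, 77.6, 87.9 and 85.0 CPM in WT somata and 273, 269, 192, 188 and 253 CPM in WT growth cones, and rose by 1.48 ± 0.18 on the log2 scale (edgeR adjusted p = 4.92e-05). Mrps18b had 32.5, 18.3, 23.9, 18.4 and 26.9 CPM in WT somata and 29.9, 12.8, 4.26, 12.1 and 16.1 CPM in WT growth cones, which overlap, and a log2 difference of -0.62 ± 0.47 that did not pass (0.315). Mrps18c rose by 0.87 ± 0.22 (0.00686), a sign that turns with a gene length offset (-0.24).

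The level of Mrps18a relative to Mrps18b was compared within libraries, as log2 ratios of CPM + 0.5. The mean log2 ratio was 1.85 ± 0.24 (SD, n = 5) in WT somata and 4.14 ± 0.79 in WT growth cones, a difference of 2.28 (exact two-sided permutation test over 252 regroupings, p = 0.00794, the smallest it can give, and 0.00953 after Benjamini-Hochberg adjustment over 6 comparisons). The same difference in the labelled KO was 2.96 (exact permutation p = 0.00794, adjusted 0.00953). Against Mrps18c, Mrps18a differed less, by 0.59 in WT (exact permutation p = 0.00794, adjusted 0.00953) and 0.76 in the labelled KO (exact permutation p = 0.0397, adjusted 0.0397). Of the exonic bases, 30.5% in Mrps18b overlap the opposite-strand gene Gm16279 and 23.2% in Mrps18c the same-strand gene Gm43511, and the part of these overlaps in the ratios was not tested.

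Among members with other known roles, Mrpl58, which frees stalled ribosomes, rose by 1.15 ± 0.22 in WT and 1.14 ± 0.26 in the labelled KO. Mrps12, at the decoding site, rose by 0.86 ± 0.23 and 0.82 ± 0.17, and this sign also turns with a gene length offset (-0.30 and -0.34). Mrpl45, on the membrane side of the tunnel through which new proteins leave, ran from 43.6 to 77.5 CPM in WT somata and from 32.7 to 54.4 CPM in WT growth cones, with a log2 difference of -0.31 ± 0.24 that did not pass. Mrps30, a large subunit protein, did not pass either (-0.28 ± 0.28).

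**Figure D2:**
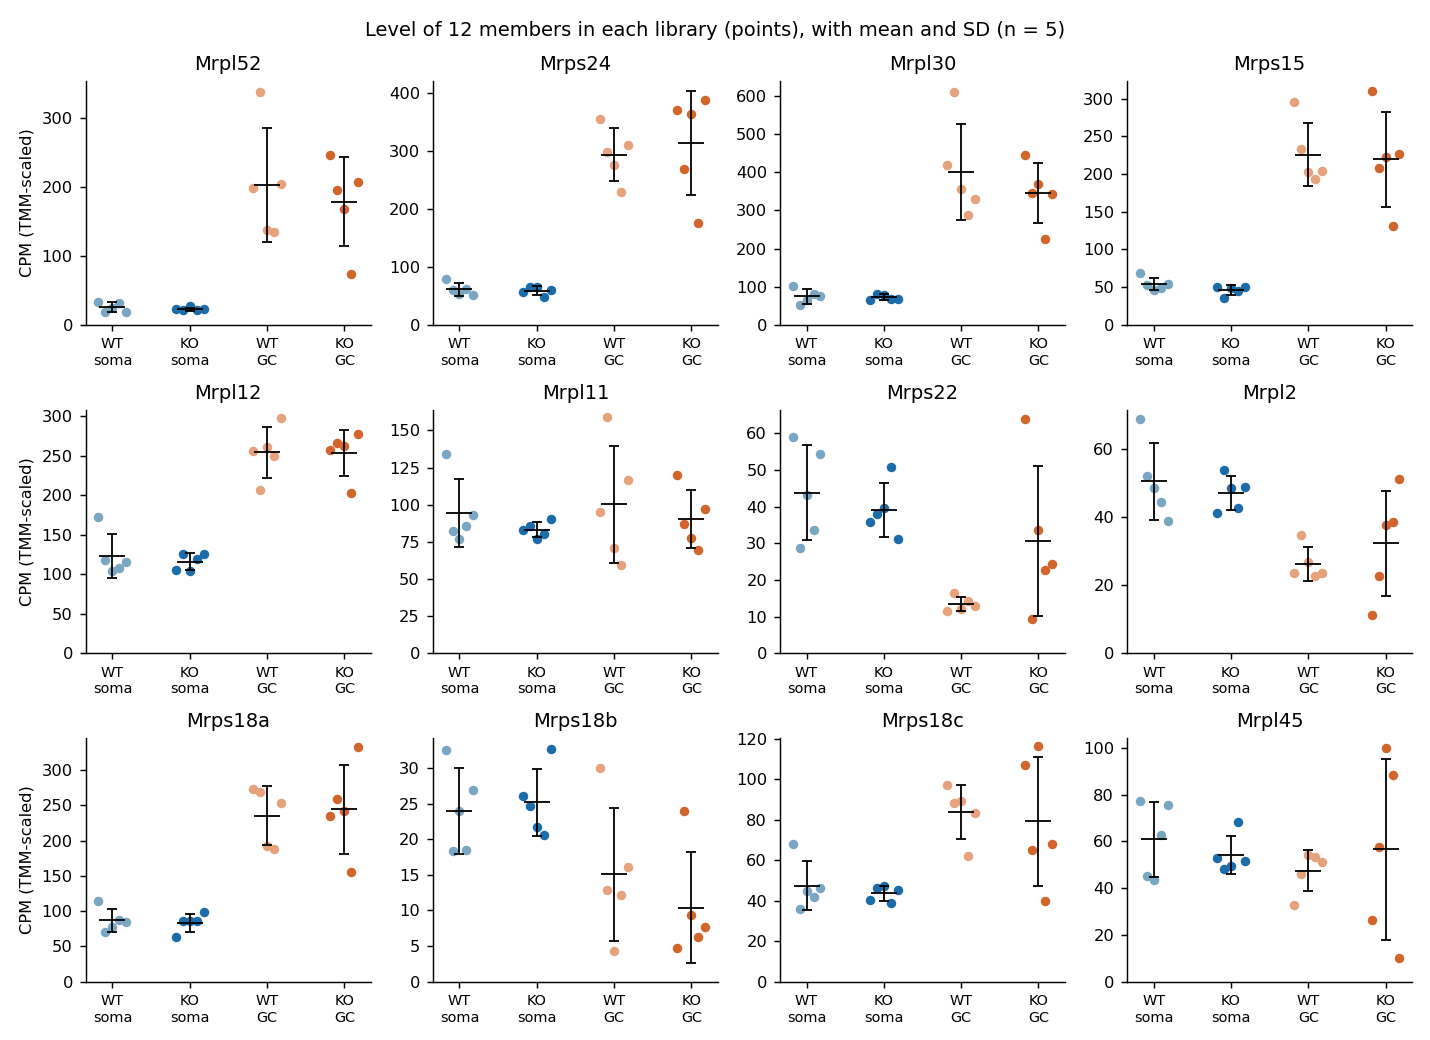
Level of 12 members in CPM with TMM scaling (linear axis from 0) in each of the 5 libraries of WT soma, labelled KO soma, WT growth cone (GC) and labelled KO GC, with the mean and SD as bars. Mrpl52, Mrps24, Mrpl30 and Mrps15 stand apart between compartments in both genotypes, while Mrps22 stands apart in WT, from 28.7 to 58.9 CPM in somata and 11.5 to 16.5 CPM in growth cones, and overlaps in the labelled KO.

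The 5 members that ran the other way in WT were Mrps22, Mrpl2, Mrpl37, Mrpl19 and Mrpl50. Mrps22, a small subunit protein without a bacterial counterpart, had 58.9, 28.7, 43.3, 33.7 and 54.2 CPM in somata and 11.5, 16.5, 12.2, 14.3 and 12.9 CPM in growth cones. Every growth cone library lay below every soma library, with a log2 difference of -1.65 ± 0.30 (edgeR adjusted p = 0.000805), and the call held in every alternative run. Somata of the labelled KO had 35.8, 38.0, 39.7, 50.9 and 31.1 CPM and growth cones 63.7, 9.27, 33.6, 22.7 and 24.2 CPM. These overlap, and the log2 difference of -0.25 ± 0.44 did not pass (0.686).

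Mrpl2, a protein beside the centre where peptide bonds form, had 68.8, 52.0, 48.6, 44.3 and 38.8 CPM in WT somata and 23.6, 34.7, 26.8, 22.8 and 23.5 CPM in WT growth cones, without overlap. Its log2 difference was -0.90 ± 0.25 (edgeR adjusted p = 0.0118), and without WT soma library 12 it was -0.68 and no longer passed (0.0600). Mrpl50, Mrpl19 and Mrpl37 had log2 differences of -0.69 ± 0.18, -0.74 ± 0.22 and -0.89 ± 0.32, with single libraries of the compartments overlapping. These 3 and Mrpl3 fall outside the rule for named genes and were added after their values were seen. The call of Mrpl37 was lost without any 1 of 8 libraries, and under 3 other scalings and the gene length offset (-0.41), and that of Mrpl19 without WT soma library 12 or 25, under upper quartile scaling and with the offset (-0.19). The call of Mrpl50 was lost under upper quartile scaling (edgeR adjusted p = 0.0514). The number of members called lower ranged from 2 to 10 over the alternatives.

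The same comparison in the labelled KO gave 42 higher members of 77, 1 lower and 34 not called. Among all 15410 genes tested, 21.6% were called higher and 17.0% lower (38.6% in all). The median log2 difference was 0.77 for members and 0.11 for all genes. In 32 members the growth cone libraries all lay above the soma libraries (18.6% of genes) and in 1 all below (17.5%). The lower member was Mrpl3, a large subunit protein with a bacterial counterpart, at -0.67 ± 0.22 (edgeR adjusted p = 0.0328), a call that was lost without any 1 of 5 libraries.

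The WT and labelled KO comparisons use no library in common. However, growth cones of both genotypes carry the same experiment numbers, and so do most somata. A difference between experiments could thus enter both comparisons alike. Of the members called higher, 39 were called in both, which is 92.9% of either list. Of the 14569 genes tested in both, 18.4% were called higher in both. These were 79.8% of the genes called higher in WT and 83.5% of those called higher in the labelled KO. No member was called lower in both and no member was called in opposite directions. Mrpl1, Mrpl9 and Mrps6 were called higher in WT alone and Mrpl36, Mrps23 and Mrps35 in the labelled KO alone, and 26 members were called in neither (49.1% of all genes). The calls made in the labelled KO alone were not stable: those of Mrpl36 and Mrps35 were each lost without any 1 of 9 libraries and that of Mrps23 without any 1 of 6, and with the gene length offset Mrpl36 turned to -0.52 and Mrps23 to -0.12. Of those made in WT alone, Mrpl9 lost its call without any 1 of 3 libraries and Mrps6 with the offset. Across the 77 members, which are not independent replicates, the 2 sets of log2 differences had Pearson r = 0.93 and Spearman rho = 0.931, and 72 members (93.5%) had the same sign. Over all genes tested in both, r was 0.835, rho 0.852 and the share with the same sign 86.0%. In 25 members the growth cone libraries stood above the soma libraries in both genotypes (15.1% of all genes). Whether members differ from other genes in this was not tested.

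**Figure D3:**
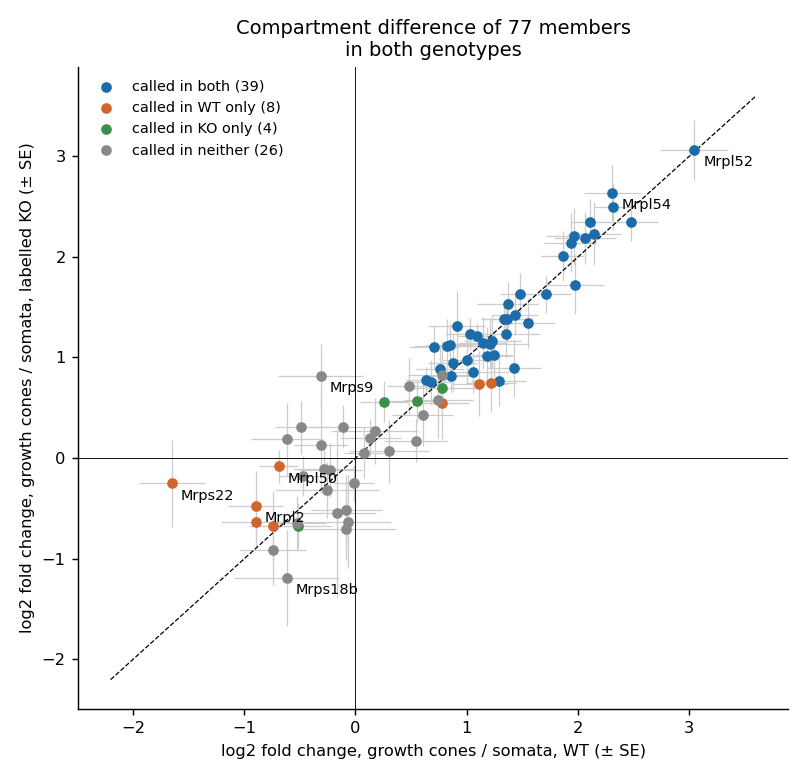
Log2 fold change (± SE) between growth cones and somata for 77 members in WT (horizontal axis) and in the labelled KO (vertical axis), with colour for the genotypes in which the edgeR call was made and a dashed line of equality. The 39 members called in both lie near the line on the positive side, and Mrps22 lies off it at -1.65 in WT and -0.25 in the labelled KO.

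Summed over all 78 members, the level was 4096 ± 566 CPM (SD, n = 5) in WT somata and 7447 ± 1154 CPM in WT growth cones. Labelled KO libraries had 4011 ± 160 CPM in somata and 7364 ± 1403 CPM in growth cones. Libraries ran from 3641 to 5071 CPM in WT somata, from 3766 to 4165 CPM in labelled KO somata, from 6045 to 8947 CPM in WT growth cones and from 5115 to 8555 CPM in labelled KO growth cones, so the compartments did not overlap within a genotype. WT soma library 12 had the highest sum of the WT somata, where the other 4 ran from 3641 to 4072 CPM. Labelled KO growth cone library 10 had the lowest sum of its group, where the other 4 ran from 6901 to 8555 CPM. Without WT soma library 12, 47 members were called higher and 2 lower in WT, and without labelled KO growth cone library 10, 45 were called higher and 0 lower in the labelled KO (edgeR).

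Members also spread further apart from each other in growth cones. On the scale of log2 of TPM + 0.5 (a measure that divides counts by gene length), the SD among 77 members within a library was 1.13 to 1.22 in WT somata and 1.13 to 1.20 in labelled KO somata. Growth cone libraries had 1.48 to 1.68 (WT) and 1.40 to 1.91 (labelled KO). Over all 17645 genes of the fit to 20 libraries, the same SD was 2.71 to 2.83 in somata and 2.57 to 2.85 in growth cones, which overlap. Libraries of a group differed more in growth cones too. The median coefficient of variation of a member was 19.7% in WT somata, 12.6% in labelled KO somata, 27.3% in WT growth cones and 32.5% in labelled KO growth cones. This was not particular to members: over all genes tested, the median SE between genotypes was 0.60 in growth cones and 0.30 in somata.

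The order of the members by TPM level changed with the compartment. In WT somata Mrpl28 was highest at 411 ± 34.0 TPM (SD, n = 5), followed by Mrpl12 at 259 ± 50.4 TPM and Mrpl34 at 221 ± 27 TPM, and the latter pair overlap. In WT growth cones Mrps24 was highest at 535 ± 57.5 TPM, followed by Mrpl52 at 482 ± 155 TPM and Mrpl12 at 450 ± 80.5 TPM, and these 3 do not differ beyond their spread. The lowest in WT somata were Mrps10, Mrps25 and Mrps35, at 13.2, 12.6 and 11.2 TPM. In WT growth cones they were Mrps35, Mrps9 and Mrps22, at 13.4, 10.2 and 9.10 TPM. TPM here divides by summed exon length, which exceeds the longest coding transcript. These lengths were 8079 and 1113 bases in Mrps10, 6576 and 6073 in Mrps25, and 8631 and 4162 in Mrps35. Mrps9 had 5763 and 1418, and Mrps22 3991 and 1197. The opposite-strand gene Nr2c2 overlaps 69.8% of Mrps25 exonic bases. The part of these in the ranking was not tested. Mrpl28, the highest in somata, had a log2 difference of -0.47 ± 0.21 between the compartments that did not pass (edgeR adjusted p = 0.0914). Mrpl34 rose by 1.23 ± 0.25 (0.00209), a sign that turns with a gene length offset (-0.35), and Mrps10 by 1.21 ± 0.34.

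Mrpl53 could not be tested. It had 0 counts in 19 of 20 libraries and 0.145 CPM in WT growth cone library 8. Other genes overlap 88.0% of its exonic bases. Exons of 32 members overlap another gene in part, and without these 27 of 46 tested members were called in WT (23 higher, 4 lower) and 24 of 46 in the labelled KO.

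Gene length moved with the compartment difference across all genes. Over 15128 genes the Spearman rho between the WT log2 difference and summed exon length was -0.324, and over the 77 members it was -0.134. With the longest coding transcript in place of summed exons, rho over the members was -0.288 in WT and -0.317 in the labelled KO. Members are short, with a median of 2533 bases against 4043 bases for all genes tested. In the shortest 20% of genes (56 to 1810 bases), 62.1% of 29 members were called higher against 48.1% of all genes there, and the median log2 difference was 0.86 for members and 1.54 for all genes. In the next class, 42.9% of 21 members were called higher against 26.1% of genes, with medians of 0.13 for members and 0.29 for genes. In the middle 20%, 63.6% of 11 members were called higher against 17.0% of genes, with medians of 0.91 and -0.25. In the fourth class by length, 33.3% of 9 members were called higher against 12.8% of genes, with medians of -0.28 and -0.41. In the longest 20%, 5 of 7 members (71.4%) were called higher against 11.7% of genes, with medians of 1.21 and -0.34. Summed exon length can exceed that of a single transcript. The longest coding transcripts of these 5 had 478 (Mrpl33), 1113 (Mrps10), 1223 (Mrpl13), 4285 (Mrpl48) and 7300 bases (Mrpl17).

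When summed exon length entered the fit as an offset, 34 members were called higher and 10 lower in WT. The median was 0.32 for members and 0.16 for all genes, of which 21.4% were called higher and 15.7% lower. Labelled KO counts were 31 and 8, where 19.6% of all genes were called higher and 13.7% lower, and the medians 0.36 and 0.18. Of the 47 members called in WT, 13 did not keep the call with the offset, among them Mrpl12 (0.31, edgeR adjusted p = 0.111) and Mrpl18 (0.43, 0.0744), and 30 kept it in the same direction in the edgeR, DESeq2 and limma-voom alternatives and with each library left out. Mrpl41, a large subunit protein called higher at 0.68, was called lower with the offset (-0.57, edgeR adjusted p = 0.0168). Of the 43 called in the labelled KO, 15 lost it and 26 kept it throughout. The part of length in the member difference was not tested beyond this.

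**Figure D4:**
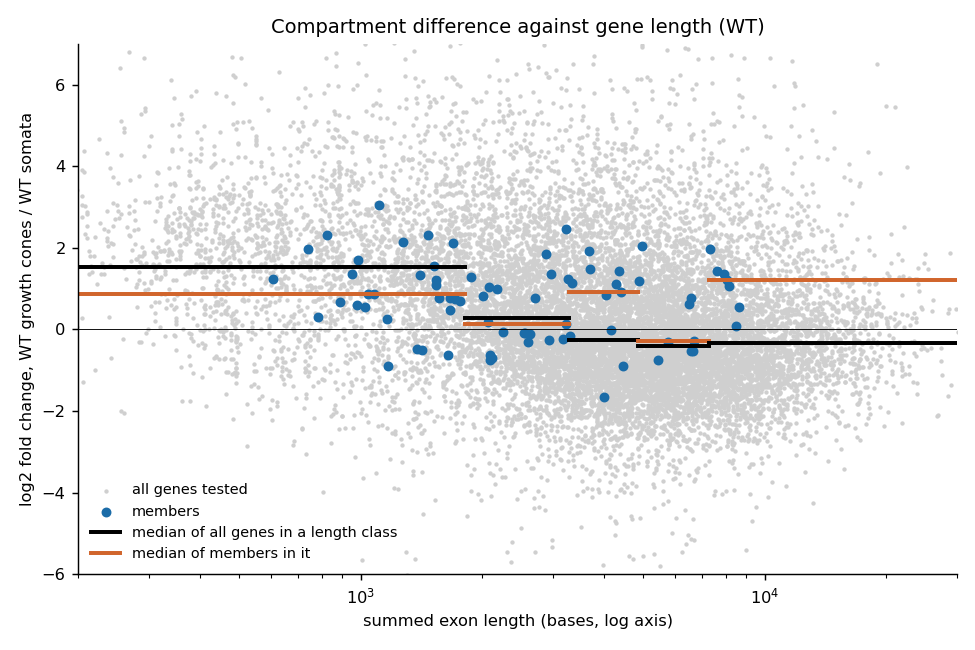
Log2 fold change between WT growth cones and WT somata against summed exon length (log axis, bases) for all genes tested (grey) and members (blue), with the median of all genes (black) and of members (orange) in 5 equal classes of genes by length. Genes beyond the axis ranges are not drawn. Members lie below the genes of their summed exon length in the shortest class (0.86 against 1.54) and above them in the longest (1.21 against -0.34).

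Markers of cells and tissue other than these neurons moved with the compartment. In WT growth cones 9 of 10 astrocyte markers and 7 of 10 oligodendrocyte markers were higher and none lower. All 10 tested of 17 Hox genes of hindbrain and spinal cord were called higher. Hox genes were near 0 in somata and passed the count filter only through growth cones, so the direction of these calls was fixed in advance. Summed astrocyte markers ran from 30.9 to 335 CPM (of the library total) in WT somata and from 1320 to 1791 CPM in WT growth cones, oligodendrocyte markers from 63.9 to 118 and from 608 to 2385 CPM, and Hox genes from 0.105 to 0.272 and from 115 to 229 CPM. No astrocyte or oligodendrocyte marker was at 0 in every library of a group, while 6 Hox genes were at 0 in all WT somata. Of markers of vessels and blood 4 of 8 tested, of choroid plexus and meninges 4 of 5 and of microglia 1 of 8 were higher. The choroid plexus and meningeal genes Ttr and Dcn had 0.262 and 0.373 CPM in WT somata and also passed the filter only through growth cones. Lower was 1 microglial marker. Of 7 tested RNAs kept in the nucleus 1 was higher. Summed astrocyte markers in the labelled KO ran from 155 to 483 CPM in somata and from 1089 to 1880 CPM in growth cones, with 8 of 10 markers higher, and oligodendrocyte markers from 87.3 to 121 and from 589 to 1711 CPM, with 6 of 9 higher. Markers of subcerebral projection neurons were present in both compartments, with summed levels of 2318 to 2542 CPM in WT somata and 1026 to 1231 CPM in WT growth cones, and 9 of 14 were lower in growth cones, while Pcp4 (2.84) and Igfbp4 (2.57) were higher. The part of these RNAs in the member difference was not tested.

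Few other genes of mitochondrial translation were called higher in WT growth cones. Of 5 mitochondrial ribosomal proteins with other symbols, Aurkaip1 (0.80 ± 0.26 on the log2 scale) and Chchd1 (0.59 ± 0.21) rose in WT growth cones, while Ptcd3 (-2.39 ± 0.38) and Dap3 (-1.57 ± 0.35) fell. Of 15 tested translation factors 1 rose, the RNA-binding protein Slirp (1.07), and 3 fell, its partner Lrpprc (-2.12), the elongation factor Tufm (-1.15) and Gfm2 (-0.65). Of 25 assembly factors 1 rose, Malsu1 (1.53), which acts on the large subunit, and 2 fell, Dhx30 (-2.19) and Mterf4 (-1.10). Of 17 mitochondrial aminoacyl-tRNA synthetases, the enzymes that load the transfer RNAs, 0 rose and 5 fell in WT by the edgeR test, with a median of -1.24, among them Iars2 (-2.15) and Rars2 (-1.93). Of 11 genes of mitochondrial DNA expression 2 rose, the DNA-binding protein Ssbp1 (0.91) and Mterf1a (2.59), and 1 fell, the DNA polymerase Polg (-1.48). These lists differ from the members in length and number, and the difference between lists was not tested.

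Genes for cytosolic ribosomal proteins rose in WT growth cones in 76 of 79 tested cases and fell in 0, with a median log2 difference of 1.92 (Rpl12 at 3.81, Rps2 at 2.97 and Rpsa at 2.7), and in the labelled KO in 77 of 79 with a median of 2.0. Of 82 tested nuclear genes of the respiratory chain, 57 rose and 10 fell in WT, with a median of 0.99. Of 14 tested genes encoded in mitochondrial DNA, 2 rose and 2 fell: the small ribosomal RNA mt-Rnr1 was higher by 1.29 ± 0.31 and mt-Nd2 by 0.83, mt-Nd1 and mt-Co1 were lower (-0.60 and -0.40), and the large ribosomal RNA mt-Rnr2 was not called (-0.07).

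**Figure D5:**
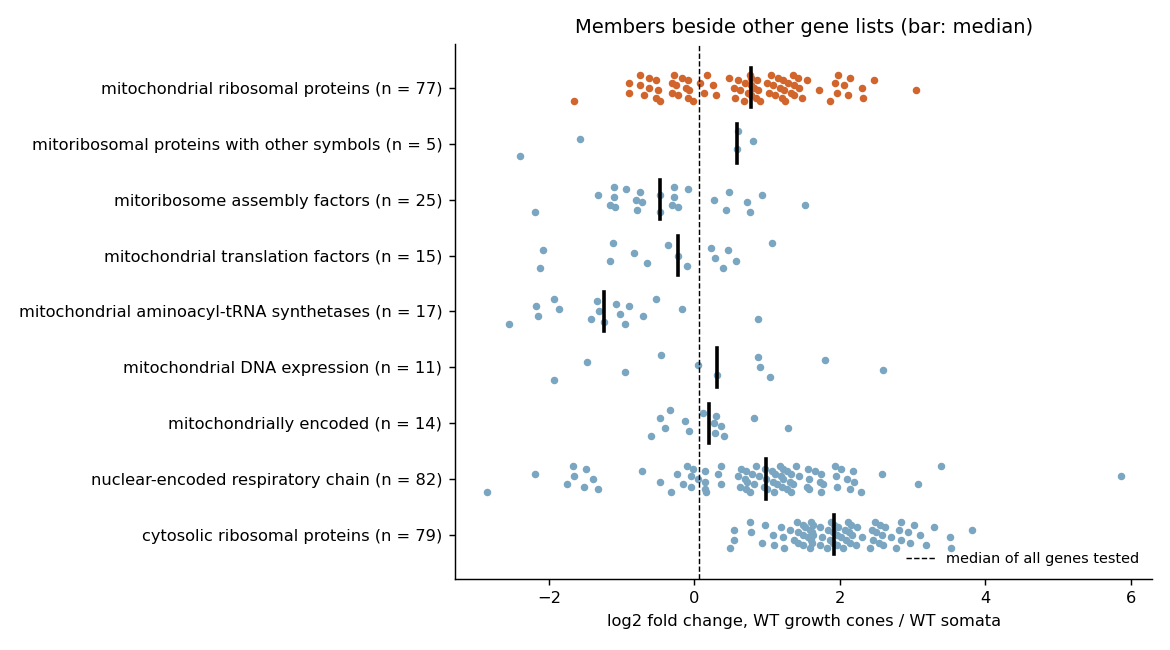
Log2 fold change between WT growth cones and WT somata for each tested gene (points) of the members and of 8 other lists, with the median of each list as a bar and the median of all genes tested as a dashed line. The bar of the members lies at 0.78, between cytosolic ribosomal proteins at 1.92 and mitochondrial aminoacyl-tRNA synthetases at -1.24.

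The next comparisons ask whether members differ between the labelled KO and WT. In growth cones 0 of 77 members passed (edgeR), where 0 of 15419 genes passed in all, 0% called. At an unadjusted p under 0.05 there were 3 members (3.90%, against 2.13% of all genes): Mrps22, Mrpl46 and Mrps9, a small subunit protein with a bacterial counterpart. Their log2 differences were 1.20 ± 0.49, 0.64 ± 0.28 and 0.96 ± 0.43 (edgeR adjusted p = 0.999 for each). Mrps9 had 26.1, 7.59, 33.8, 21 and 19 CPM in WT growth cones and 52.7, 35.6, 25, 31.1 and 62.2 CPM in labelled KO growth cones, which overlap. No member had groups without overlap in growth cones (0.233% of genes higher, 0.246% lower). Differences of the 77 members ran from -0.92 (Mrpl24) to 1.20 (Mrps22) with a median SE of 0.28, and for 52 of them the 95% interval (t quantile, 8 residual degrees of freedom) lay within a 2-fold change either way.

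In somata 0 of 77 members passed, where 0.731% of 14911 genes were called (0.416% higher and 0.315% lower). The lowest p belonged to Mrpl48, a large subunit protein, with 56.0, 34.7, 34.5, 41.2 and 38.0 CPM in WT somata and 61.8, 61.2, 67.5, 39.1 and 66.3 CPM in labelled KO somata. The log2 difference was 0.54 ± 0.19 (edgeR adjusted p = 0.366), and labelled KO library 25 lay within the WT range. Mrpl16 and Mrps25 followed, at -0.33 ± 0.14 and 0.38 ± 0.17 (edgeR adjusted p = 0.492 and 0.568), and these 3 were the members with an unadjusted p under 0.05 (3.90%, against 8.57% of all genes). No member had groups without overlap in somata (1.84% of genes higher, 1.29% lower). Differences ran from -0.34 to 0.54 with a median SE of 0.17, and all 77 intervals of 95% lay within a 2-fold change either way.

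The interaction, which tests whether the compartment difference depends on the genotype over all 20 libraries, called 0 of 77 members, where 0.0397% of 17645 genes were called (0.0113% positive and 0.0283% negative), and 4 members (5.19%, against 6.98% of all genes) had an unadjusted p under 0.05 (edgeR). Mrps22 had the lowest p, with 1.36 ± 0.52 (edgeR adjusted p = 0.539), so its WT call and its lack of one in the labelled KO are not shown to differ. Mrpl50 followed at 0.58 ± 0.23 and Mrps9 at 1.10 ± 0.48 (edgeR adjusted p = 0.565 and 0.656). For 45 members the 95% interval of the interaction (16 residual degrees of freedom) lay within a 2-fold change either way. DESeq2 and limma-voom also called 0 members in the 3 comparisons that involve genotype.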

How the data were processed

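RNA was measured in 20 libraries of 4 groups. Per the labels' protocols, cDNA was made with SMART-seq v4, a kit that does not mark strand, and libraries with Nextera XT, from 1.8 to 3.1 ng of RNA (somata) or 0.19 to 3.1 ng (growth cones). The submitters' processing notes name Trimmomatic 0.39, STAR 2.7.1a, featureCounts 1.5.0 and GRCm39. The authors deposited raw read counts per gene in 1 table, whose coordinates match GRCm38: the exons of 54435 genes (98.1% of 55487) equal those in GENCODE M21, which gave symbols for 55141. Strand and multi-mapping settings are not given in the sources used here. No column was left unmatched, and 0 entries name no gene. The smallest chi-square per degree of freedom between libraries of a group was 43.1, so none was merged.

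Counts were tested with edgeR 4.0.16 in R 4.3.3 (quasi-likelihood F test, TMM scaling, filterByExpr with a minimum count of 10, Benjamini-Hochberg adjustment over all genes tested, call under 0.05), with the 2 groups compared in each fit and all 20 libraries for the interaction. Standard errors come from the F statistics. Levels are CPM with TMM scaling over all 20 libraries, and TPM where genes are compared with each other. Alternatives were other scalings, DESeq2 1.42.0, limma-voom (limma 3.58.1), no filter, an FDR of 0.10, detected genes as a covariate, a gene length offset, 1 fit of all libraries, members with exon overlap left out, a replicate block and each library left out. On simulated data, edgeR recovered 94% of 100 genes changed 2-fold in the WT compartment comparison (15128 genes, 11 false calls) and 88% in the comparison of somata (14911 genes, 7 false calls). The simulation gave every gene the same set spread between libraries, which was not estimated from these data. In the data, the median SE over genes was 0.51 in the WT compartment comparison and 0.30 in somata. The recovered shares therefore do not measure power here, and the genotype comparison in growth cones was not simulated.

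Named members are up to 8 per direction with the lowest p among those called without overlap of libraries, the 3 with the lowest p in each genotype comparison and the interaction, 11 members picked for their role, and the 3 highest and 3 lowest by TPM in each WT compartment. Up to 3 genes per direction are named from related lists, of which 1 is not reported here. The members and lists were chosen with earlier results of these data known.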

Additional observations from a re-analysis of the deposited data

Results flagged for a closer look

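Among the named members, 124 groups of 5 libraries were checked for a library far from the other 4 (Dixon's test, critical value 0.71), and 10 were flagged, where chance flags about 1 group in 20. WT soma library 12 was high for Mrpl12 (172.2 CPM, others 104 to 118), Mrpl54 (39.3 CPM, others 24.3 to 27.2) and Mrps12 (66.6 CPM, others 42.3 to 46.3). Labelled KO growth cone library 10 was low for Mrpl12 (203.1 CPM, others 257 to 278), Mrpl34 (46.0 CPM, others 95.5 to 125) and Mrpl54 (63.5 CPM, others 139 to 167). Labelled KO soma library 25 was high for Mrpl45 (68.4 CPM, others 48.3 to 53.1) and low for Mrpl48 (39.1 CPM, others 61.2 to 67.5). Labelled KO soma library 15 was high for Mrpl58 (63.7 CPM, others 47.5 to 50.4), and library 22 of the same group for Mrps35 (46.4 CPM, others 32.8 to 35.4).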

How the results depend on the processing

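With members that overlap another gene's exons left out, 27 of 46 were called in WT and 24 of 46 in the labelled KO, counts that are lower since fewer members were tested. With single libraries left out, 43 to 50 members were called in WT and 35 to 45 in the labelled KO, and at an FDR of 0.10 the counts were 55 and 53. Calls in the lower direction, of which the report gives 5 and 1, ranged from 2 to 10 in WT and from 0 to 8 in the labelled KO. In the 3 comparisons that involve genotype, 0 members were called under every alternative run.

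Deviations of same-numbered libraries over 17645 genes correlated weakly, at 0.0041 to 0.088 in growth cones and -0.046 to 0.059 in somata. The highest correlation with a library of another number was -0.0029 to 0.037 in growth cones and -0.0022 to 0.051 in somata. Most same-numbered pairs lay above that value, such as growth cones 10 (0.088 against 0.022). Growth cones 8 and somata 26 lay below it. The main fits did not use the numbers as pairs, and a replicate block was run as an alternative. The replicate block left the count of called members at 0 in both genotype comparisons and the interaction. No block could be fitted between compartments, which share no experiment number in the labelled KO or WT, so compartment and experiment cannot be told apart.

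With the gene length offset, 4 of 47 members called in WT and 7 of 43 called in the labelled KO turned their sign, and Mrpl41 was called in the opposite direction in WT. The sign of some named members turned under an alternative, and the cause was not tested. With the gene length offset, WT log2 differences became -0.35 for Mrpl34, -0.30 for Mrps12, -0.24 for Mrps18c, 0.29 for Mrps30 and 0.24 for Mrps9, and labelled KO differences -0.16 for Mrpl10, -0.40 for Mrpl34, -0.0085 for Mrpl45, -0.34 for Mrps12, -0.23 for Mrps18c, 0.15 for Mrps22 and 0.42 for Mrps30. In the labelled KO, upper quartile scaling gave 0.011 for Mrpl28 and 0.083 for Mrps30, library totals 0.014 for Mrps30 and limma-voom -0.12 for Mrpl45. With each library left out in turn, Mrpl11 ran from -0.076 to 0.38 in WT, and in the labelled KO Mrpl45 from -0.15 to 0.39 (negative without growth cone library 9 or 10) and Mrps30 from -0.23 to 0.017 (positive without growth cone library 7). In the labelled KO, Mrps35 lost its call without any 1 of 9 libraries and Mrps18c without any 1 of 3, and Mrps18b passed under DESeq2, limma-voom, the length offset and the fit of all libraries. Scaled to library totals alone, the summed member level of labelled KO somata was 3777 CPM. Depth was 18962308 counts or more in every library.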

Other observations

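Within the nuclear genes of the respiratory chain, the WT compartment difference ran both ways. Cox8a, a small subunit of cytochrome c oxidase, was higher in growth cones by 3.08 ± 0.27 on the log2 scale (SE), Ndufa6 of complex I by 2.58 ± 0.20 and Atp5j of the ATP synthase by 2.18 ± 0.19. Uqcrc1, a core subunit of complex III, was lower (-2.18 ± 0.14), as were Atp5b (-1.75 ± 0.13) and Atp5a1 (-1.49 ± 0.11), which form the head of the ATP synthase. In the labelled KO the values were 2.7, 2.51 and 2.26 for the first 3 and -2.2, -1.60 and -1.39 for the others.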
